A study of Homo sapiens with 30 samples.

Results

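The comparison described here sets THP-1 macrophage-like cells kept for 1 h with 100 µg/ml of titanium dioxide nanobelts (TiO2-NB) against cells kept for 1 h with 0 µg/ml. Its members are the 6 arrays whose titles give that material, dose and time or the 1 h control, 3 per group, of 30 arrays in all. THP-1 is an established human acute monocytic leukaemia line. All groups carried the same pretreatment: phorbol 12-myristate 13-acetate (PMA, 82 nM) for 24 h, after which the adherent cells were scraped, counted and replated. The other groups used below each had 3 arrays. For 1 h they were TiO2-NB at 10 µg/ml and multi-walled carbon nanotubes (MWCNT) at 10 and at 100 µg/ml. For 24 h they were TiO2-NB at 100 µg/ml and control. MWCNT at 10 and 100 µg/ml and TiO2-NB at 10 µg/ml for 24 h were not compared here. Their arrays entered the fit over all 30 arrays, which shares its estimate of the spread of each gene over all groups. The labels call the arrays of a group biological replicates. The model is a single cell line after PMA, the labels name no particle as a control for the nanobelts, and RNA came only from cells still adherent at the end. In such bulk RNA, fewer cells of a type and less RNA per cell cannot be told apart.

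Nanobelts are long ribbon-shaped crystals. Macrophages bind and engulf particles through scavenger and other phagocytic receptors and an actin-driven uptake, and long particles that are hard to enclose can damage the lysosomes that receive them. The first transcripts to move after most stimuli of macrophages are those of immediate early factors such as FOS and EGR1, followed by NF-kappaB targets such as chemokines. A rise of cytosolic calcium activates the phosphatase calcineurin, which sends the transcription factor NFAT to the nucleus. RCAN1, a protein that binds and regulates calcineurin, has an internal start that calcineurin and NFAT are known to switch on.

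Levels are log2 RMA intensities, a scale on which a difference of 1 is a doubling, and a fold change is exposed minus control. After a filter on low values 10050 genes were tested. The 9 measured macrophage and monocyte markers had mean levels from 6.95 (CD14) to 12.81 (TYROBP) in exposed cells, and none of them was called. EPCAM, KRT19 and CDH1 (epithelial), MS4A1 (lymphocyte) and COL3A1 and LUM (fibroblast) lay below the filter. The other markers of those types passed it: KRT8, KRT18 and CLDN4, CD3E, CD3D, CD2 and CD79A, and COL1A1, COL1A2, DCN and PDGFRA, with mean levels in exposed cells from 4.53 (CD2) to 7.72 (COL1A1). Of these DCN was called, and lower. The part of other cell types in the results was not tested. The lowest correlation between arrays was 0.979 over all 30 and 0.993 among the 6. The first principal component of the 6 arrays (37.4% of the variance) put replicate 2 of both groups apart, at 14.7 with TiO2-NB and 10 in control, with the other 4 arrays between -9.8 and -2.6.

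The early change was small. By limma over all 30 arrays 116 of 10050 genes were called at a Benjamini-Hochberg adjusted p under 0.05, which is 1.15%. Of these, 22 were higher with TiO2-NB (0.219%) and 94 lower (0.935%). The median size of a called change was 0.42 and the largest 0.75 on the log2 scale, and 7 genes, all lower, changed at least 1.5-fold. An unadjusted p under 0.05 was reached by 1582 genes, where 502.5 would be with no true change. In 1167 genes (11.6%) the 3 exposed arrays all lay above the 3 control arrays, and in 916 (9.11%) all below.

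The number of calls rested on single arrays and on how the shared deviations were handled. Without replicates 1, 2 or 3 of the control it was 2, 0 and 103. Without replicates 1, 2 or 3 of the exposed group it was 69, 21 and 12. When only the 6 arrays were fitted without the pairing it was also 0. Equally numbered exposed and control arrays deviated together, with correlations of 0.61, 0.69 and 0.60. With the replicate number as a block over the 6 arrays, a fit with 2 residual degrees of freedom, the calls numbered 685, with 320 higher (3.18%) and 365 lower (3.63%), and 97 of the 116 were among them. The lowest adjusted p of the blocked fit was 0.0433. Quantile normalization with the same block left 0 calls. The 1 h arrays of both MWCNT doses paired by number with these groups as well (correlations from 0.33 to 0.73). Of TiO2-NB at 10 µg/ml only replicate 3 did (from 0.38 to 0.45), and replicates 1 and 2 did not (from -0.48 to -0.32). Across numbers, its replicate 1 correlated at 0.63 with control replicate 2, and its replicate 2 at 0.45 with control replicate 1. Whether these 2 numbers were exchanged was not tested. With the block over the 12 arrays of 1 h other than TiO2-NB at 10 µg/ml, an alternative chosen after seeing the data, the calls numbered 966. They were 516 higher (5.13% of all genes) and 450 lower (4.48%), and included 115 of the 116. The block over all 15 arrays of 1 h, which takes the numbers of TiO2-NB at 10 µg/ml as labelled, called 221. In all, at least 93 of the 116 were called without the block and with it over both 6 and 12 arrays. That count used adjusted p rounded to 3 digits and leaves out UFSP2, whose value without the block rounds to 0.05.

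**Figure D1:**
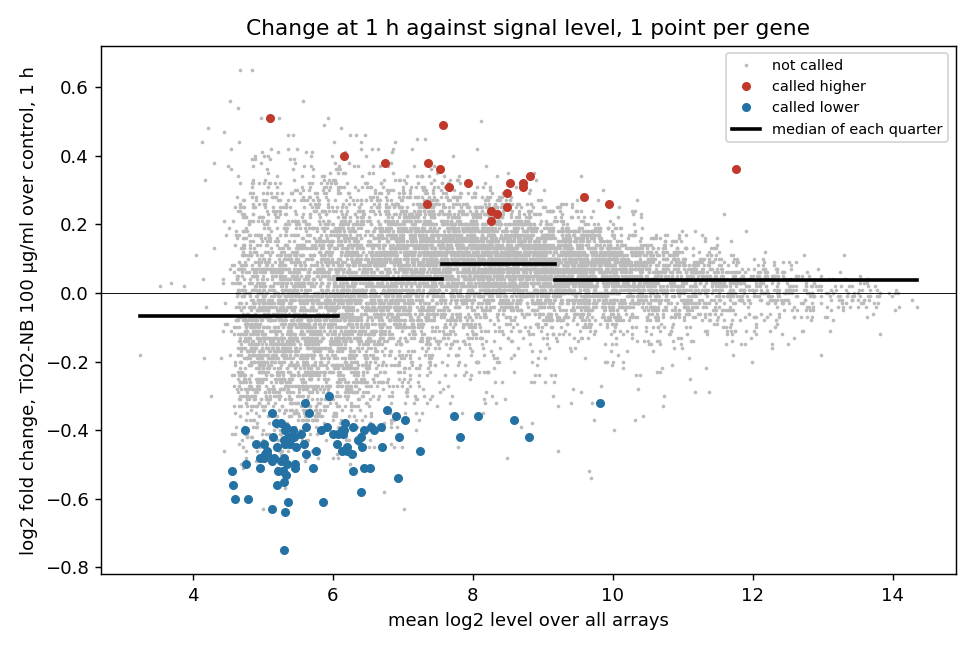
Each point is a gene, with its mean log2 level over all arrays on the x axis and its log2 fold change (TiO2-NB 100 µg/ml over control, 1 h) on the y axis. Coloured points are the genes called higher and called lower, and black bars are medians of 4 groups of genes of near equal size by level. Called genes whose adjusted p rounds to 0.05, among them UFSP2, are drawn as not called. The blue points crowd at low levels, and the red points lie at middle levels.

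Higher and lower genes differed in level. Of the 94 lower genes 59 belonged to the lowest of 4 near equal groups by mean level and 29 to the next, and the highest 2 groups held 5 and 1. The median mean level was 8.26 for the called higher genes and 5.59 for the called lower genes, beside 7.56 for all genes tested. The shift was not limited to called genes: from the lowest to the highest group the median log2 fold change was -0.068, 0.042, 0.085 and 0.039. The distribution of all probe sets moved the same way. Its 25th percentile was 4.81, 4.80 and 4.77 on the exposed arrays and 4.85, 4.88 and 4.81 on the control arrays, and its 75th percentile was 8.41, 8.43 and 8.45 against 8.35, 8.34 and 8.40. The 25th percentiles touched at 4.81, and the 75th did not overlap. The part of this shift in the low-level falls was not tested directly. With quantile normalization, which gives every array the same distribution, the calls numbered 47, with 8 higher and 39 lower. With a filter at the array median in place of the 25th percentile they numbered 13, with 6 higher and 7 lower.

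RCAN1 was the called gene with the highest level among the rises. It measured 11.35, 11.28 and 11.51 in exposed cells and 10.96, 11.02 and 11.08 in control cells. Every exposed array lay above every control array. The log2 fold change was 0.36 ± 0.06 (SE), or 1.28-fold (adjusted p = 0.011, limma). Its 3 kept probe sets gave 0.36, 0.35 and 0.42 at quite different levels, 11.38, 8.48 and 5.30 with TiO2-NB. RCAN1 was called in 18 of 24 alternative settings, with log2 fold changes from 0.29 to 0.41 and adjusted p from 0.00715 to 0.16.

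The sequences before 2 of the 6 RCAN1 starts that RefSeq lists are shown because the gene has a calcineurin-responsive internal start. Each holds the 250 bases before a start on the minus strand of GRCh38.p14, written in the gene's direction. Capitals mark GGAAA, the NFAT core, on either strand.
RCAN1 internal start, chr21:34526823-34527072: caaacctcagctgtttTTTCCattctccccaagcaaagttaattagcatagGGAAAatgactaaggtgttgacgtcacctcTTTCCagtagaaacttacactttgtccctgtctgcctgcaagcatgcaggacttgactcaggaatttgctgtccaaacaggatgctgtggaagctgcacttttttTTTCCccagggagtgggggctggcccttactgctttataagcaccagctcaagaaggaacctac
RCAN1 upstream start, chr21:34615114-34615363: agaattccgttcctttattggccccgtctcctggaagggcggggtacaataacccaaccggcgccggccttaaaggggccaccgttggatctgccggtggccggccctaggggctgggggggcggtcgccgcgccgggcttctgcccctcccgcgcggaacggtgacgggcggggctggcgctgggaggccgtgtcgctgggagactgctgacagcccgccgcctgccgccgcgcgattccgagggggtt

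The internal RCAN1 sequence held 4 matches to GGAAA and those before the other 5 starts 0, of which the one farthest upstream is shown. At least 1 match is common, since 55.6% of 35116 human promoter sequences of RefSeq held one. A match is a run of letters and does not show that a factor binds. Which RCAN1 start gave the signal was not tested.

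LIPT1, which attaches lipoic acid to mitochondrial enzymes, had the lowest adjusted p. Its levels were 7.53, 7.48 and 7.58 with TiO2-NB and 7.06, 6.97 and 7.10 in control cells. The lowest exposed array lay well above the highest control array. The log2 fold change was 0.49 ± 0.07 (adjusted p = 0.00904, limma), and 21 of 24 alternatives called it. FBXL8, an F-box protein, had the largest called rise, with 5.42, 5.45 and 5.24 against 4.92, 4.96 and 4.70 (0.51 ± 0.10, adjusted p = 0.0194), at a level near the low end of the tested genes.

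Other rises had smaller fold changes. TRRAP, a scaffold of histone acetyltransferase complexes, had 8.86, 8.84 and 8.87 in exposed cells against 8.36, 8.53 and 8.68 (0.34 ± 0.08, adjusted p = 0.033). A second TRRAP probe set gave 0.37, but with the block over the 6 arrays TRRAP was not called (adjusted p = 0.0519, and 0.0432 over 12 arrays). YEATS2, a subunit of an acetyltransferase complex that reads acylated histones, had 7.81, 7.88 and 7.81 against 7.45, 7.58 and 7.54 (0.31 ± 0.05, adjusted p = 0.011). The exposed arrays of both genes were close together, and all were above the control arrays. The zinc finger genes ZNF573 (0.38 ± 0.07), ZNF235 (0.40 ± 0.09) and ZMYM4 (0.29 ± 0.07) and SHQ1, an assembly factor of H/ACA ribonucleoproteins (0.32 ± 0.07), rose as well, and so did THUMPD2, which has an RNA-binding THUMP domain (0.32 ± 0.08). Dimmer probe sets gave 0.13 for SHQ1 and 0.21 and 0.15 for ZMYM4.

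The remaining large rises had other roles. MAN2A1, a Golgi mannosidase that trims N-glycans, measured 9.10, 9.03 and 9.19 against 8.76, 8.76 and 8.86 (0.31 ± 0.06, adjusted p = 0.022). WDR41, a partner of C9orf72 in a complex at lysosomes, rose by 0.32 ± 0.07, and UFSP2, a protease that processes the ubiquitin-like UFM1, by 0.33 ± 0.08. PTCH1, the hedgehog receptor, rose by 0.36 ± 0.09 and DLG5, a scaffold of cell junctions, by 0.38 ± 0.09, but each has a second, dimmer probe set that gave -0.06 and -0.09. All 15 of these largest rises were below 1.5-fold. Their calls differed in stability: of 24 alternatives 4 called UFSP2 and ZMYM4, 7 PTCH1 and THUMPD2, 8 DLG5 and 9 TRRAP, while 19 called ZNF573 and 18 YEATS2.

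**Figure D2:**
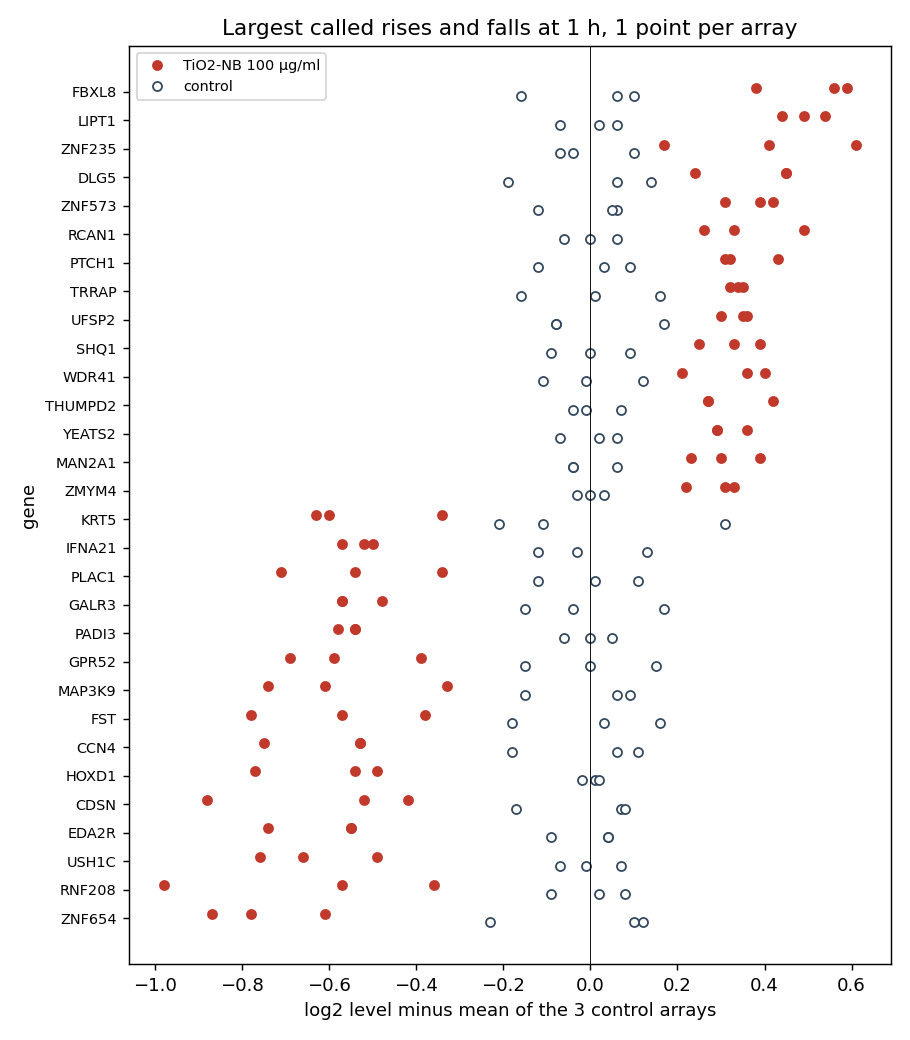
The 15 largest called rises and 15 largest called falls at 1 h, with the log2 level minus the mean of the 3 control arrays on the x axis. Filled points are the 3 TiO2-NB 100 µg/ml arrays and open points the 3 control arrays. The rule for naming required that the groups not overlap, and the falls are wider than the rises.

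The largest falls lay at low signal. ZNF654, a zinc finger gene, had 5.16, 5.07 and 5.33 with TiO2-NB and 6.06, 5.71 and 6.04 in control cells (-0.75 ± 0.16, adjusted p = 0.0291). EDA2R, a TNF receptor family member that binds ectodysplasin A2, had 5.28, 5.47 and 5.47 against 6.06, 6.06 and 5.93 (-0.61 ± 0.11, adjusted p = 0.0132). FST, follistatin, which binds activin, had 6.22, 6.03 and 5.82 against 6.76, 6.63 and 6.42 (-0.58 ± 0.11, adjusted p = 0.0193). In each of these genes the highest exposed array lay below the lowest control array, in FST by the narrowest margin.

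The other falls of that set shared the low level. USH1C, a scaffold of sensory hair cells (-0.63 ± 0.12), RNF208, a RING finger protein (-0.64 ± 0.14), HOXD1, a homeobox factor (-0.60 ± 0.12), and CCN4, a matricellular protein (-0.60 ± 0.12), were each under 5 in the mean of the exposed arrays. So were MAP3K9, a kinase above JNK (-0.56 ± 0.13), GPR52, an orphan receptor (-0.56 ± 0.14), IFNA21, an interferon alpha (-0.52 ± 0.12), and PLAC1, a placental protein (-0.53 ± 0.11). CDSN, of corneodesmosomes, fell by 0.61, with a second probe set at -0.28. PADI3, which fell by 0.55, is a peptidylarginine deiminase, and KRT5, a basal keratin, fell by 0.52 on the log2 scale. GALR3, a galanin receptor, had a mean of 6.46 against 7.0 (-0.54 ± 0.12). Interferon alpha genes are near-identical, and the IFNA21 and USH1C probe sets are of the kind that Affymetrix marks as able to bind other transcripts. A second, dimmer USH1C probe set gave -0.13. With the block over the 6 arrays CDSN (adjusted p = 0.0515) and GPR52 (adjusted p = 0.0535) were not called, but both were over 12 arrays (0.0238 and 0.0211). Of the alternatives in which each gene was measured, 8 called GPR52 and KRT5 and 19 called EDA2R, with the other falls of this set in between.

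The 36 gene lists held 741 measured genes, of which 4 were called without the block, all lower (0.54%), and 0 higher, beside 0.935% and 0.219% of all genes. An unadjusted p under 0.05 was reached by 57 of the 741 (7.69%), beside 15.7% of all genes. CISH, a feedback inhibitor of cytokine receptor signalling, had 6.42, 6.32 and 6.34 against 6.79, 6.65 and 6.81 (-0.39 ± 0.09, adjusted p = 0.033). KDM6B, a histone H3 lysine demethylase, had 8.40, 8.35 and 8.44 against 8.85, 8.78 and 8.68 (-0.37 ± 0.09, adjusted p = 0.0432), and its other probe sets gave -0.22 and 0.00. CDKN2A, a cell cycle inhibitor, changed by -0.41 ± 0.09 with a second probe set at 0.06, and DCN, the matrix proteoglycan decorin and here a fibroblast marker, by -0.50 ± 0.11 with a second at -0.14. DCN was not called with the block over the 6 arrays (adjusted p = 0.0592) but was over 12 (0.0275). That 12-array fit called 2 of 4 measured fibroblast and 2 of 4 measured lymphocyte markers lower, beside 4.48% of all genes. The median levels of these lists were 6.47 and 5.41, beside 7.56 for all genes. PDGFRA (fibroblast) differed by 0.18 and CD79A (lymphocyte) by 0.04. In CISH, KDM6B, CDKN2A and DCN the exposed arrays lay below the control arrays. The CISH, CDKN2A and DCN probe sets are, like that of USH1C, of the kind able to bind other transcripts.

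Immediate early and stress genes did not pass the test without the block. FOS had 9.75, 10.39 and 9.78 with TiO2-NB and 9.67, 10.16 and 9.77 in control cells (0.11 ± 0.16). EGR1 had 10.74, 10.28 and 11.29 against 10.70, 10.25 and 11.29 (0.02 ± 0.27), so that equally numbered arrays nearly coincided while replicates differed by up to a unit. ATF3, a stress-induced factor, stood at 12.60, 12.83 and 12.46 against 12.49, 12.94 and 12.40 (0.02 ± 0.15). Of 31 measured AP-1, EGR and NR4A factors 0 were called by limma without the block, 3 had an unadjusted p under 0.05, and the median log2 fold change was 0.02, beside 0.04 for all genes. MYC (0.17 ± 0.14), IER2 (-0.06 ± 0.08), IER3 (0.13 ± 0.17) and NR4A1 (-0.08 ± 0.07) were called in none of the 24 alternatives run. DUSP1 (0.25 ± 0.23), the phosphatase that ends MAP kinase signals, was called in 1. With the block over the 6 arrays the SEs were 0.06 for FOS, 0.04 for EGR1 and 0.05 for DUSP1 and none of the 3 was called (adjusted p = 0.254, 0.794 and 0.0526), and over 12 arrays DUSP1 was (adjusted p = 0.029) while FOS and EGR1 were not (adjusted p = 0.237 and 0.865). Of the 31 factors that 12-array fit called 2 higher and 1 lower, beside 5.13% and 4.48% of all genes.

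Inflammatory genes were likewise uncalled without the block. TNF had 8.70, 8.34 and 8.75 against 8.69, 8.36 and 8.76 (-0.01 ± 0.21), and IL1B 12.67, 12.18 and 12.73 against 12.68, 12.14 and 12.76 (0.00 ± 0.20). CXCL8, interleukin 8, differed by 0.07 ± 0.11 and NFKBIA, the inhibitor of NF-kappaB, by 0.08 ± 0.16. Of 28 cytokines and chemokines and 18 NF-kappaB feedback targets 0 were called, with 3 and 1 at an unadjusted p under 0.05, and both lists had a median of 0.05. The TNF and IL1B arrays overlapped fully between the groups.

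With the block over the 6 arrays, 5 of the 28 cytokines and chemokines and 2 of the 18 NF-kappaB feedback targets were called higher and 0 lower, beside 3.18% and 3.63% of all genes. They are named here after their values were seen. CXCL2, a chemokine for neutrophils, measured 7.97, 7.62 and 7.95 in exposed cells and 7.48, 7.0 and 7.56 in control cells (0.50 ± 0.06, adjusted p = 0.0433 with the block and 0.151 without). Its relative CXCL3 had 7.23, 7.02 and 6.99 against 6.77, 6.60 and 6.68 (0.40 ± 0.05, adjusted p = 0.0433, and 0.193 without). Each exposed array of both genes lay above every control array, by a narrow margin in CXCL2, whose probe set is of the kind able to bind related transcripts. CCL2, a chemokine for monocytes, had 6.87, 7.54 and 7.0 against 6.66, 7.17 and 6.56 (0.34 ± 0.06 with the block). CCL4 (0.30 ± 0.06) and CXCL10 (0.28 ± 0.05) completed the 5, and the arrays of all 3 overlapped although each exposed array exceeded the control of its number. GCH1, which starts tetrahydrobiopterin synthesis (0.35 ± 0.05), and REL, an NF-kappaB subunit (0.30 ± 0.05), were the 2 NF-kappaB targets. Over the 12 paired arrays CXCL3, CCL2, CCL4 and REL were called (adjusted p = 0.0183, 0.0469, 0.0241 and 0.0221), beside 5.13% of all genes called higher, and CXCL2, CXCL10 and GCH1 were not (0.0642, 0.0506 and 0.0546). All 7 were uncalled with the block over the 15 arrays of 1 h (adjusted p from 0.0555 to 0.395). That block takes the numbers of TiO2-NB at 10 µg/ml as labelled.

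PTGS2, the inducible cyclooxygenase, also chosen after its values were seen, moved with them. It had 6.03, 6.16 and 6.33 with TiO2-NB and 5.46, 5.79 and 5.80 in control cells (0.49 ± 0.06, adjusted p = 0.0433 with the block, 0.163 without, and 0.0297 with the block over 12 arrays). The exposed arrays were all higher. It was the single member of 14 prostaglandin and leukotriene genes called with the block over the 6 arrays, and 1 of 2 over 12. Of all genes, 3.18% and 5.13% were called higher in these fits. Other list members called with this block included CCN2, a matricellular protein (0.32), PLK2, a kinase induced by p53 (0.51), ASNS, asparagine synthetase (0.35), and ENO2, an enolase (0.36). KLF13, a zinc finger repressor (-0.58), IL6R, the interleukin 6 receptor (-0.40), and CHAC1, which degrades glutathione (-0.43), were among those called lower. So were STAB1, a scavenger receptor (-0.41), and GPX2, a glutathione peroxidase (-0.29). With the block over 12 arrays PLK2, ASNS and GPX2 were not called (adjusted p = 0.0689, 0.0612 and 0.0553), and the other genes of this paragraph were.

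**Figure D3:**
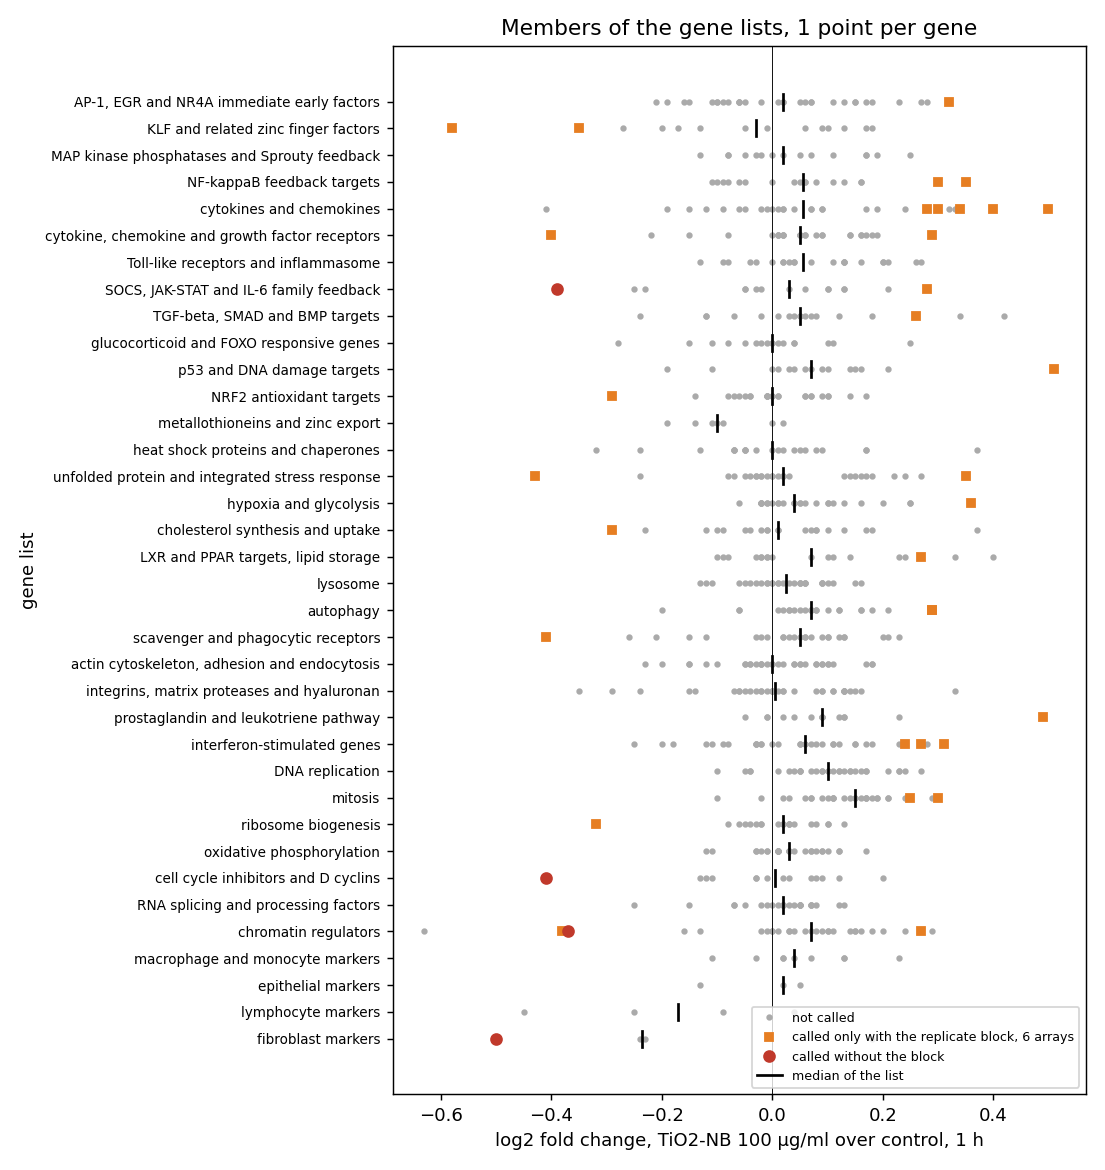
Members of the 36 gene lists, 1 point per measured gene, with the log2 fold change (TiO2-NB 100 µg/ml over control, 1 h) on the x axis. Colours mark the 4 members called without the block and those called only with the replicate block over the 6 arrays, and the vertical bars are list medians. The medians lie between -0.24 (fibroblast markers) and 0.15 (mitosis).

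Lists for particle handling and oxidative stress held 0 calls without the block. Of 30 lysosomal genes, 35 genes of the actin cytoskeleton, adhesion and endocytosis, and 22 Toll-like receptor and inflammasome genes 0 were called by limma without the block or with it over the 6 arrays, and 0, 4 and 2 had an unadjusted p under 0.05, beside 1582 of the 10050 genes. The 12-array block called 0, 1 and 1 of them, beside 5.13% of all genes called higher and 4.48% lower. Their medians were 0.03, 0.00 and 0.06. Of 25 scavenger and phagocytic receptors 0 were called without the block (1 at an unadjusted p under 0.05). With it over the 6 arrays 1 was called lower, beside 3.63% of all genes. Of 25 autophagy genes 0 were called without the block, 4 had an unadjusted p under 0.05, and 2 were called higher with it, beside 3.18% of all genes: ATG9A, a lipid scramblase of autophagosome formation (0.29), and UVRAG, a partner of the VPS34 complex (0.29). Both were also called over 12 arrays (adjusted p = 0.0211 and 0.0469). HMOX1, haem oxygenase, differed by -0.06 ± 0.11, and the 25 NRF2 antioxidant targets had a median of 0.00 with 1 at an unadjusted p under 0.05. MT2A, a metallothionein, differed by -0.14 ± 0.11, and the 7 metallothionein and zinc export genes had a median of -0.10 with 0 at an unadjusted p under 0.05.

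Proliferation genes had the highest medians without calls. The 29 mitosis genes had a median of 0.15 and the 31 DNA replication genes 0.10, with 0 called in each without the block and 1 and 0 at an unadjusted p under 0.05. KIF23, a kinesin of cytokinesis (0.30), and CENPF, a kinetochore protein (0.25), were called with the block, beside 3.18% of all genes called higher. The 12-array block called 4 mitosis genes and 1 DNA replication gene, all higher, beside 5.13% of all genes. The median level of the mitosis genes was 7.69, in the group of genes between 7.56 and 9.18, whose median fold change was 0.085. That of the DNA replication genes was 7.45, in the group between 6.07 and 7.56, whose median was 0.042. CDKN1A, the p53 target that stops the cycle (-0.11 ± 0.10), TXNIP, a thioredoxin inhibitor (0.04 ± 0.16), HMGCS1, of cholesterol synthesis (-0.12 ± 0.11), and ABCG1, a sterol exporter (0.40 ± 0.32), were not called.

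At 10 µg/ml for 1 h, TiO2-NB gave 0 called genes against the same control arrays, with 213 at an unadjusted p under 0.05. The 22 genes called higher at 100 µg/ml had a median log2 fold change of 0.32 there and 0.11 at 10 µg/ml, and the 94 called lower had -0.44 and -0.09. These medians share control arrays and the selection at 100 µg/ml. Tested directly, 100 against 10 µg/ml differed in 8 of 10050 genes (0.0796%), 1 higher and 7 lower, with 1024 at an unadjusted p under 0.05. The count was 0 when only the 6 arrays compared, or only the 15 arrays of 1 h, were fitted. RCAN1 was the higher one. It had 11.01, 11.02 and 11.08 at 10 µg/ml, which lay within the span of the control arrays, and the difference between the doses was 0.34 ± 0.06 (adjusted p = 0.0329, limma). LIPT1 had 7.19, 7.39 and 7.35 at 10 µg/ml, between the groups, and the difference between the doses did not pass the test (adjusted p = 0.236).

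The 7 lower genes had low to middle signal. GDF5, a growth factor of the BMP family, averaged 5.53 ± 0.10 at 100 µg/ml, 6.13 at 10 µg/ml and 5.92 ± 0.11 in control cells, with a difference between the doses of -0.60 ± 0.08 (adjusted p = 0.0015). COBLL1, a cordon-bleu-like actin-binding protein (-0.58 ± 0.11), HLA-DOB, a chain of the class II modulator HLA-DO (-0.55 ± 0.11), CACNA1F, a calcium channel of the retina (-0.51 ± 0.09), and MTNR1A, a melatonin receptor (-0.48 ± 0.09), followed. COL5A3 (-0.45) and SFN (-0.42) complete the 7 and are named because the count is small. In GDF5 the 3 arrays at 10 µg/ml were 6.20, 6.19 and 6.0, not between the other groups. Without replicate 3 of the 10 µg/ml group the count was 90. It was 1 without replicate 1 or replicate 2 of that group, and 7, 4 and 3 without replicates 1, 2 and 3 of the 100 µg/ml group.

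**Figure D4:**
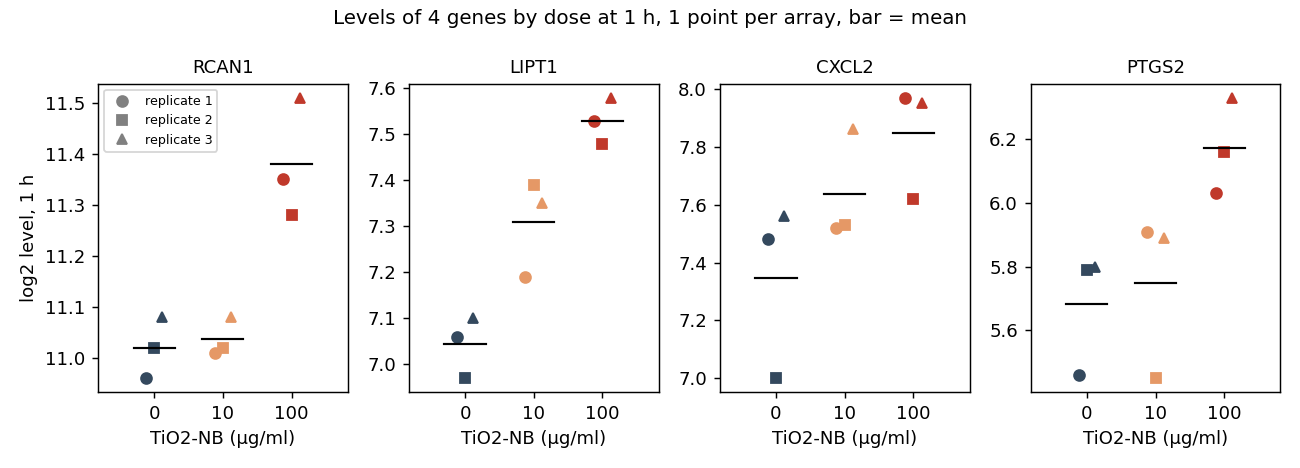
Log2 levels of RCAN1, LIPT1, CXCL2 and PTGS2 at 1 h by TiO2-NB dose in µg/ml, 1 point per array with the symbol giving the replicate number and the bar the mean. RCAN1 at 10 µg/ml lies with the control arrays and the 3 arrays at 100 µg/ml lie above 11.2, while LIPT1 at 10 µg/ml lies between them.

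Against MWCNT at the same dose and time, TiO2-NB differed in 143 genes (1.42%), 29 higher and 114 lower with TiO2-NB, with 1459 at an unadjusted p under 0.05. The count was 0 with the 6 arrays compared, with or without the block, 23 with the 15 arrays of 1 h, and 582 with the block over the 12 paired arrays. MWCNT itself gave 0 called genes against the control, with 293 at an unadjusted p under 0.05. RCAN1 was higher with TiO2-NB by 0.29 ± 0.06 (adjusted p = 0.0267, limma). Its levels with MWCNT were 11.03, 11.08 and 11.17, below all 3 TiO2-NB arrays. The difference in LIPT1 did not pass the test (adjusted p = 0.137). Of the 22 genes called higher and 94 called lower against the control, 4 and 48 were also called between the materials in the same direction, a count that shares the TiO2-NB arrays. Without replicates 1, 2 or 3 of TiO2-NB 127, 6 and 18 genes were called, and without replicates 1, 2 or 3 of MWCNT 76, 10 and 59.

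The genes that differed most between the materials were mostly low in signal as well. ANGPTL4, a secreted inhibitor of lipoprotein lipase, had 7.08, 7.09 and 6.97 with TiO2-NB and 5.89, 6.71 and 6.64 with MWCNT (0.63 ± 0.13, adjusted p = 0.0241), so that 1 MWCNT array lay far below the others. NTN3, a netrin, was higher with TiO2-NB by 0.59 ± 0.12, TONSL, which acts in repair of replication forks, by 0.54 ± 0.12, NPAS1, a neuronal transcription factor, by 0.53 ± 0.10 and the readthrough SEPT5-GP1BB by 0.53 ± 0.13. None of these 5 was called against the control without the block, where they differed by 0.08 to 0.33, and NTN3 was with it over the 6 arrays (adjusted p = 0.0452). HOXD1 was lower with TiO2-NB by 0.71 on the log2 scale, with 5.15, 5.15 and 4.92 in MWCNT cells. PLCB1, a phospholipase C (-0.66 ± 0.16), and CD2, a T cell adhesion molecule (-0.64 ± 0.14), were also lower. So were OR2S2, an olfactory receptor (-0.64 ± 0.14), and MYH11, a smooth muscle myosin (-0.63 ± 0.14). The NTN3, NPAS1, PLCB1 and MYH11 probe sets are of the kind able to bind other transcripts.

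At 24 h, on arrays that share none with the 1 h comparison, 1099 genes were called higher with 100 µg/ml TiO2-NB (10.9%) and 1120 lower (11.1%). Of the 22 genes called higher at 1 h, 2 were called higher at 24 h and 6 lower. Of the 94 called lower at 1 h, 2 were called lower at 24 h and 6 higher, and 75 had a 24 h log2 fold change above 0. The 24 h median was 0.013 for all genes and 0.042 for the lowest of the 4 groups by level, which held 59 of the 94. That group had a median of -0.068 at 1 h, and the part of this shift in the 75 was not tested. The genes called in the same direction at both times were 9.09% of the 1 h rises and 0.182% of the 24 h rises, and 2.13% and 0.179% of the falls. The share of the 22 rises was near the 10.9% of all genes called higher at 24 h. That of the falls was below the 11.1% called lower. The falls were mostly low in level, and the share of 24 h calls at that level was not taken.

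The 2 genes higher at both times were RCAN1 and THUMPD2. RCAN1 had 12.74, 12.72 and 12.60 with TiO2-NB at 24 h and 12.19, 12.25 and 12.25 in the 24 h control (0.46, adjusted p = 7.93e-06). Its 3 probe sets gave 0.46, 0.47 and -0.10 there. The exposed arrays were again all higher, and the difference between the responses at the 2 times did not pass the test (adjusted p = 0.476). THUMPD2 was higher by 0.35 at 24 h (adjusted p = 0.00211), and its call at 1 h was made in 7 of 24 alternatives. DBT, the core subunit of the branched-chain keto acid dehydrogenase, was lower at both times, by -0.32 at 1 h and -0.42 at 24 h, and so was DAPP1, an adaptor that binds phosphoinositides, by -0.37 and -0.33. DBT and DAPP1 are named because the count is small.

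Other genes went opposite ways. KDM6B had 8.98, 8.88 and 8.93 with TiO2-NB at 24 h against 8.33, 8.29 and 8.28 (0.63 ± 0.09, adjusted p = 1.17e-05), after its fall at 1 h. CISH was higher at 24 h by 0.31 (adjusted p = 0.00997). ZNF573 had 6.58, 6.37 and 6.40 against 6.92, 7.20 and 7.07 (-0.62, adjusted p = 3.63e-07), after its rise at 1 h. DLG5 (-0.49), MAN2A1 (-0.30), WDR41 (-0.27) and ZMYM4 (-0.20) were also lower at 24 h, with the other ZMYM4 probe sets at -0.02 and 0.02, and TMEM50B, a membrane protein named after its values were seen, was lower by 0.71 after a rise of 0.21.

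**Figure D5:**
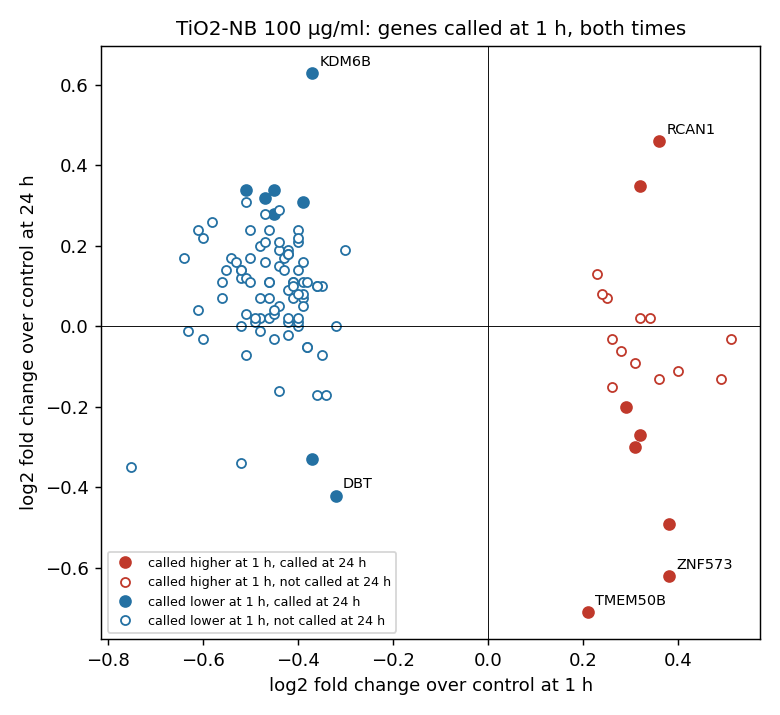
Genes called at 1 h, with the log2 fold change (TiO2-NB 100 µg/ml over control) at 1 h on the x axis and at 24 h on the y axis. Of the 116, those whose adjusted p rounds to 0.05, among them UFSP2, are not drawn. Filled points were also called at 24 h. Most genes that fell at 1 h lie slightly above 0 at 24 h, with a median of 0.11. All genes in the lowest of the 4 groups by level had a 24 h median of 0.042. RCAN1 is the highest of the genes that rose at 1 h.

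The response at 24 h minus that at 1 h was called in 1642 genes (16.3%), 753 higher and 889 lower at 24 h. It was called for 17 of the 22 rises and 82 of the 94 falls of 1 h, all towards the opposite sign, but that difference contains the 1 h response by which the genes were chosen. The largest differences belonged to genes uncalled at 1 h without the block. With it over the 6 arrays CCL4 and BBOX1 were called at 1 h (adjusted p = 0.0473 and 0.0433). CCR7, a chemokine receptor, changed by -0.15 ± 0.17 at 1 h and 3.37 at 24 h, CCL4 by 0.30 and 2.85, TNFAIP6, a hyaluronan-binding protein, by 0.11 and 2.65, CXCL1, a chemokine, by 0.24 and 2.77, and NR4A2, an orphan nuclear receptor, by 0.28 and 2.60. The 5 largest in the other direction were LBH, GJA1 (a connexin), THSD7A, PRR5L and BBOX1, with 24 h changes of -1.75, -1.85, -1.74, -1.68 and -1.34 and 1 h changes of 0.20, 0.02, 0.15, 0.14 and 0.48. Of the genes called only with the block at 1 h, CXCL2 had 2.80 and CXCL3 2.52, and PTGS2 2.38. ATF3 (1.35) and TNF (1.48), both near 0 at 1 h, were called higher than control at 24 h. Their responses differed between the times (adjusted p = 0.000143 and 0.00128, limma). Mean TNF levels were 8.6 in both groups at 1 h, and 10.32 with TiO2-NB and 8.84 in control at 24 h. Those of ATF3 were 12.63 with TiO2-NB and 12.61 in control at 1 h, and 12.52 and 11.18 at 24 h. NR4A2 had 7.6 and 7.32, then 6.9 and 4.3. In ATF3 and NR4A2 the control was lower at 24 h than at 1 h, and the exposed level was not higher.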

How the data were processed

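RNA of 30 cultures was hybridised to Affymetrix 3-prime arrays. The authors deposited log2 intensities per probe set, made with RMA, per the submitters' processing notes, with the version not given in the sources used here; they were not normalized again and carry no detection calls, and precision is set by how many arrays there are. Of 22277 probe sets, the 19064 that name 1 gene were used. Probe sets that exceeded the 25th percentile of all probe sets on 3 or more arrays were kept, and each gene took its kept probe set of highest mean. HSPA1A and CD68 were not among the tested genes.

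limma 3.58.1 in R 4.3.3 fitted 10 group means over 30 arrays (20 residual degrees of freedom), with two-sided moderated tests and Benjamini-Hochberg adjustment within each comparison. Errors are SEs of the fit, or SDs of 3 arrays for levels. The scripts were tested on simulated data. Equal replicate numbers in the labels name no shared culture or day. Deviations of equally numbered exposed and control arrays correlated at 0.61, 0.69 and 0.60. The numbers were therefore taken to pair these arrays, and blocked counts stand beside the others. Other pairs ran from -0.44 to -0.12. That is no separate evidence, since deviations from the mean of 3 arrays sum to 0 within each group. The numbers of the MWCNT arrays of 1 h paired too. Of TiO2-NB at 10 µg/ml only number 3 did, and numbers 1 and 2 correlated with the control array of the other number. A block over the 12 arrays of 1 h without that group was therefore added. The labels call the arrays biological replicates.

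Members, gene lists and tests were chosen with earlier results of these data known. Genes were named by rule: the 15 largest called rises and falls without overlap, up to 4 called members per list, 20 fixed genes, and the 5 largest called differences each way in the dose, material and time comparisons. Alternatives were other array sets, scalings, filters, probe set rules, test settings and arrays left out.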

Additional observations from a re-analysis of the deposited data

Results flagged for a closer look

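The response to 100 µg/ml TiO2-NB differed between the times, by limma's test of the difference, in 55 of the 77 named genes, 36 higher and 19 lower at 24 h, beside 1642 of all 10050 genes. Each value is the log2 fold change over control at 24 h minus that at 1 h. For genes chosen for their 1 h response, that response is part of the difference.

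Among the largest rises of 1 h the difference was called for FBXL8 (-0.54), LIPT1 (-0.62), ZNF235 (-0.51), DLG5 (-0.87), ZNF573 (-1.0), PTCH1 (-0.49), TRRAP (-0.32), UFSP2 (-0.54), SHQ1 (-0.31), WDR41 (-0.59), YEATS2 (-0.41), MAN2A1 (-0.61) and ZMYM4 (-0.49). Among the largest falls it was called for RNF208 (0.81), USH1C (0.63), EDA2R (0.86), CDSN (0.65), HOXD1 (0.57), CCN4 (0.82), FST (0.84), MAP3K9 (0.66), GPR52 (0.63), PADI3 (0.68), GALR3 (0.71), PLAC1 (0.7) and IFNA21 (0.64).

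Of the list members that fell at 1 h it was called for CISH (0.7), CDKN2A (0.51), KDM6B (1.0) and DCN (0.74). Of the fixed genes it was called for NR4A1 (0.49), ATF3 (1.32), TNF (1.49), CXCL8 (0.86), CCL2 (1.2) and HMOX1 (0.52). Of the genes named in the dose and material comparisons, GDF5 (0.55), COBLL1 (0.5), HLA-DOB (0.64), CACNA1F (0.46), MTNR1A (0.62), PLCB1 (0.74), OR2S2 (0.75) and MYH11 (0.66) were higher and NTN3 (-0.52) was lower. The genes named for this comparison had CCR7 (3.52), CCL4 (2.54), TNFAIP6 (2.54), CXCL1 (2.53), NR4A2 (2.32), LBH (-1.95), THSD7A (-1.89), GJA1 (-1.87), PRR5L (-1.82) and BBOX1 (-1.81). RCAN1 and THUMPD2 were not among the 55.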

How the results depend on the processing

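The 116 calls of the 1 h comparison were 0 with only the 6 arrays, 26 with only the 15 arrays of 1 h, 221 with the replicate block over those 15 arrays, 685 with the replicate block over the 6 arrays, 68 with cyclic loess, 13 with the stricter filter and 60 with a trended robust prior. In alternatives chosen after seeing the data they were 47 with quantile normalization, 256 with cyclic loess and the replicate block over the 6 arrays, 22 with cyclic loess and the replicate block over the 15 arrays, 0 with quantile normalization and the replicate block over the 6 arrays, and 966 with the replicate block over the 12 arrays of 1 h without the 10 µg/ml group. Leaving out 1 array gave 0 to 103. The replicate block over all 30 arrays (130 calls), median centring, no filter, every probe set, the mean of probe sets and array weights kept the count within 1.5 times.

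The 8 genes that differed between the doses were 0 with only the 6 arrays, with the 15 arrays of 1 h and with the stricter filter. They were 0, 5 and 23 with the replicate block over 6, 30 and 15 arrays. That block takes replicates 1 and 2 of the 10 µg/ml group as labelled, although they correlated with the control across numbers. The count was 36 with median centring, 4 with cyclic loess, the mean of probe sets and array weights, and 1 to 90 without 1 array. The 143 between the materials were 0 with only the 6 arrays, with the stricter filter and with the replicate block over the 6 arrays, 23 with the 15 arrays, 230 with the replicate block over 15 arrays, 582 with it over the 12 arrays without the 10 µg/ml group, 227 with array weights and 6 to 127 without 1 array. The 2219 at 24 h were 1304 with only their own arrays and 581 with the replicate block over those arrays, and 1775 to 1917 without 1 array. The 1642 of the time difference were 1019 with only the arrays compared and 1035 with the replicate block over them, and 1077 (without replicate 2 of the 24 h control) to 1730 without 1 array. The 10 µg/ml and MWCNT comparisons stayed at 0 in all alternatives run. Fewer arrays leave fewer residual degrees of freedom, and the cause of the other moves was not tested.

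No named gene's called value changed sign in the alternatives run. Of all 116 called genes 2 changed sign with the mean of probe sets and 0 in each of the others. Of the followed genes' values, 1577 kept their side of the threshold, 365 lost the call and 77 gained it. Arrays give no read depth, and without detection calls the low-signal falls cannot be set against background.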

Other observations

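ANKRD11, a chromatin regulator chosen after its values were seen, had 7.27, 7.12 and 7.22 with 100 µg/ml TiO2-NB at 1 h and 8.21, 7.36 and 7.92 in control cells (-0.63 ± 0.20, adjusted p = 0.108 by limma, and 0.0538 with the block over the 6 arrays). All exposed arrays were lower, but it was not called. At 24 h it changed by -2.04 (adjusted p = 4.59e-08). KLF13 had 7.44, 7.5 and 7.49 with TiO2-NB at 1 h against 8.09, 7.93 and 8.14, and changed by -1.09 at 24 h (adjusted p = 0.000469). IL6R, at -0.40 at 1 h, changed by -1.82 at 24 h (adjusted p = 0.000166). With 10 µg/ml for 1 h, a group that shares the control arrays, the log2 fold changes were -0.64 for ANKRD11, -0.68 for KLF13 and -0.53 for IL6R, none of them called.

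PLK2 and BBOX1 went the other way between the times. PLK2 had 5.01, 5.69 and 5.19 with TiO2-NB at 1 h against 4.36, 5.16 and 4.84 (0.51, called with the block over the 6 arrays), and changed by -1.26 at 24 h (adjusted p = 0.00293). BBOX1, of carnitine synthesis, had 3.88, 4.54 and 4.39 against 3.42, 4.18 and 3.78 (0.48, called with the same block), and changed by -1.34 at 24 h (adjusted p = 0.00242). The arrays of both genes overlapped between the groups at 1 h.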
